A study of Mus musculus with 12 samples.

Results

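Cerebellar cortex of mice on a ketogenic diet (KD) was compared with that of mice on dietary restriction (DR), gene by gene, in poly(A) RNA sequencing. The comparison took the 4 libraries whose treatment label reads ketogenic diet and the 4 labelled dietary restriction, which are 8 of the 12 libraries of the series, and all 54752 genes of its count table. The remaining 4 libraries, from mice fed ad libitum (AL), served as a reference and entered the test between KD and DR only in a named alternative with all 12 libraries in the fit. All 12 libraries came from wild-type male F1 hybrids of C57BL6J and FVB aged 12 weeks, with no transgene or treatment other than diet. The tissue was cortex only, taken from vermis, paravermis and hemisphere, and left out the cerebellar nuclei. The study chose among its DR and AL mice by RNA quality. DR mice were given a reduced amount of food once a day before lights-off. Tissue of DR and AL mice was collected after lights-off, and on that day DR mice were not fed. The composition, start and feeding schedule of KD, and the time of day at which the KD mice were killed, are not given in the sources used here, and hours of dissection of single libraries were not used, so the diet and the time since the last meal cannot be told apart in any result below. Nothing in the labels says how libraries were handled in batches. The p-values measure the spread between these 4 and 4 samples, and each library is labelled as a separate sample.

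Both regimens make the liver produce ketone bodies, which the brain can burn in place of glucose. A ketogenic diet does this by supplying fat and very little carbohydrate at sufficient calories, and restriction by a daily fast and a calorie deficit. Restricted rodents are also known for a raised release of corticosterone around the daily meal and for a lowered body temperature. Corticosterone acts through the glucocorticoid receptor on genes such as Fkbp5 and Sgk1, and temperature acts on cold-inducible RNA-binding proteins and on heat shock chaperones, so these gene groups are described first.

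Between 31749160 and 38961800 reads per library were counted on genes, 37420090 ± 1612615 on KD and 35269228 ± 2849353 on DR (SD, n = 4 each). The totals did not differ beyond the spread between libraries (two-sided exact permutation test, p = 0.257), nor did the share of counts on mitochondrially encoded genes, at 3.94% ± 0.145 on KD and 3.81% ± 0.275 on DR (exact permutation test, p = 0.4, n = 4 each). Pairs of libraries on the same diet differed by a chi-square of 7.34 to 87.0 per gene, where counting noise alone gives about 1. No library thus matched another to within counting noise. Whether any 2 came from the same RNA cannot be read from these values, since separate preparations add spread beyond counting. The labelled tissue carried its markers in all 12 libraries. Per kilobase of exon, Gabra6 of granule cells lay between 328 and 380 CPM (counts scaled to library size with TMM factors), Calb1 of Purkinje cells between 96.5 and 112 CPM and Slc1a3 of Bergmann glia between 131 and 160 CPM. Slc17a6, a marker of cerebellar nuclei and brainstem, lay at or below 0.132 CPM per kilobase, and Folr1 of the choroid plexus at or below 0.0452. Ttr, which choroid plexus makes in quantity, stood at 7.95, 0.371, 2.13 and 3.19 CPM in KD replicates 1 to 4 and at 0.817, 0.655, 0.805 and 0.770 CPM in DR replicates 1 to 4. KD replicate 1 was the high value and the diets overlapped. Hba-a1, a haemoglobin gene of blood, stood at 187 CPM in DR replicate 2 and at 65.2 to 96.7 CPM in the other 7 libraries.

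The first principal component of log2 CPM over the 8 libraries separated the diets. It held 23.7% of the variance, with scores of 13.4, 13.4, 25.01 and 12.0 on KD and −18.1, −20.6, −17.2 and −8.01 on DR, and no KD library overlapped with DR (exact permutation test, two-sided, p = 0.0286, which is the lowest value 4 against 4 libraries allow). KD replicate 3 lay beyond the other KD libraries. On the second component, with 17.6% of the variance, KD and DR overlapped (exact permutation test, p = 0.771), with KD replicate 3 and DR replicate 1 both at its low end. On CPM without log, KD and DR overlapped on the first component (38.2% of the variance, exact permutation test, p = 0.4) and were apart on the second (31.3% of the variance, exact permutation test, p = 0.0286).

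**Figure D1:**
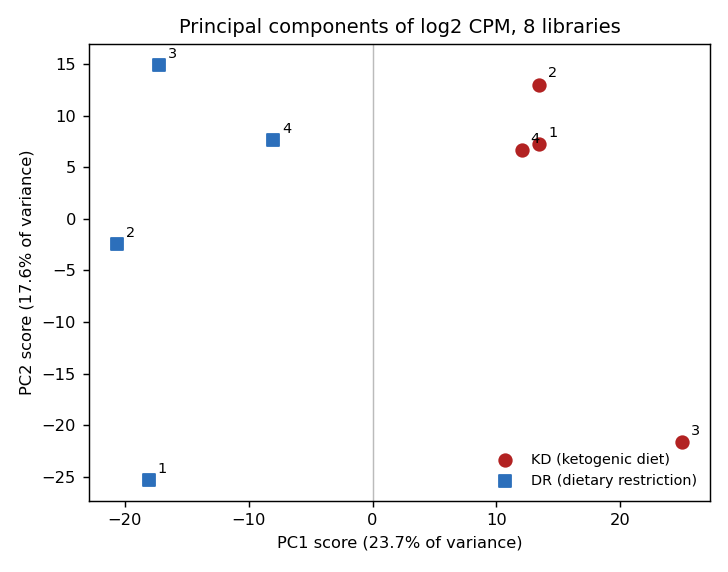
Scores of the 8 libraries on the first (horizontal) and second (vertical) principal component of log2 CPM, in score units, with the replicate number beside each point. KD libraries (circles) lie at 12.0 to 25.01 on the first component and DR libraries (squares) at −20.6 to −8.01.

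Of 19087 genes tested, 942 differed between KD and DR at an adjusted p under 0.05 (4.94%), 463 of them higher (2.43%) and 479 lower (2.51%) on KD. At an unadjusted p under 0.05 there were 3565. Differences are given as log2 ratios (log2 fold changes, KD over DR unless named otherwise) ± standard error. They were small: 294 lay below 0.25 in absolute log2 ratio, 402 from 0.25 to 0.5, 176 from 0.5 to 1 and 70 above 1, with a median of 0.32. Of the called genes, 867 were protein-coding and 32 had a mean below 1 CPM. In 433 of the higher and 440 of the lower called genes the 4 libraries of each diet did not overlap. Of all tested genes 6.03% lay higher and 5.79% lower without overlap. The called genes were picked for low p on these same libraries, so their lack of overlap is no separate support. Scaled by library size alone, 993 genes were called with 37.9% of them higher on KD, against 49.2% with TMM scaling. With single libraries left out, the count ran from 467 without KD replicate 3 to 946 without DR replicate 4. It was 526 without KD replicate 1, 601 without KD replicate 4 and 520 without DR replicate 3, and 372 genes were called in all 8 of these leave-one-out fits.

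The AL libraries stood closer to KD than to DR for most of these genes. In 436 of the 463 genes higher on KD and in 410 of the 479 lower on KD, the AL mean was nearer the KD mean than the DR mean on the log2 scale. The genes higher on KD had a median log2 ratio of 0.02 for KD against AL and −0.27 for DR against AL, and the genes lower on KD had medians of −0.06 and 0.28. These comparisons share libraries and are set side by side as values only. Tested on its own 8 libraries, KD against AL gave 0 called genes of 19036 (0.0%) in edgeR's test, with 928 at an unadjusted p under 0.05 and 10 called by DESeq2. DR against AL gave 583 of 19052 (3.06%) in edgeR's test and 958 by DESeq2.

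**Figure D2:**
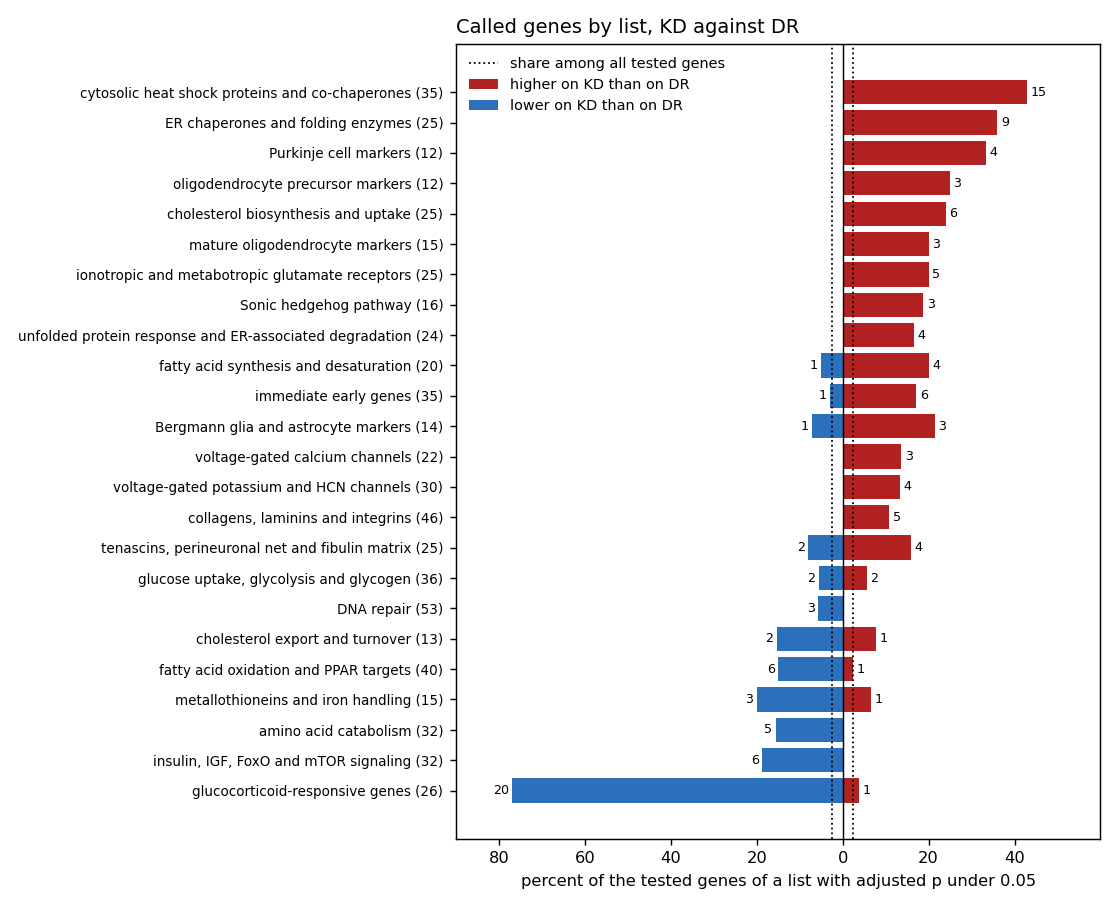
Share of the tested genes of each list (number tested in brackets) that were higher (right) or lower (left) on KD than on DR at an adjusted p under 0.05, for the lists with at least 3 called genes, with the number called beside each bar. Dotted lines mark the shares among all tested genes, 2.43% higher and 2.51% lower; the longest bars are those of glucocorticoid-responsive genes (20 of 26 lower) and of cytosolic heat shock proteins (15 of 35 higher).

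Glucocorticoid-responsive genes were lower on KD than on DR. Of 26 tested, 20 were called lower and 1 higher, 23 had a negative log2 ratio and the median was −0.54, against a median of 0.00 over all tested genes. Fkbp5 (ENSMUSG00000024222.17, chr17:28399094-28517527, GRCm38.p6), which encodes a co-chaperone that restrains the glucocorticoid receptor, stood at 14.4, 13.4, 10.7 and 9.86 CPM on KD and at 31.2, 31.4, 43.2 and 28.9 CPM on DR. Every KD library lay below every DR library, and the AL libraries lay between the diet means at 20.6, 24.5, 24.4 and 14.5 CPM. Its log2 ratio was −1.48 ± 0.13, adjusted p = 1.98e-05. Against AL, Fkbp5 had a log2 ratio of −0.80 (adjusted p = 0.224) on KD and 0.68 (adjusted p = 0.0218) on DR.

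Kinase genes of the list moved the same way. Sgk1, a kinase that regulates ion transport, stood at 73.5, 65.03, 65.7 and 59.4 CPM on KD and 88.96, 105, 117 and 98.1 CPM on DR (−0.63 ± 0.07, adjusted p = 0.00021). Map3k6, a stress-activated kinase kinase, stood at 5.09, 4.62, 3.67 and 4.04 CPM on KD and 9.50, 8.83, 14.7 and 10.7 CPM on DR (−1.33 ± 0.15, adjusted p = 0.000143). Neither gene's diets overlapped, and in both DR replicate 3 was the highest of the 8 libraries. DR replicate 3 was also the highest for Fkbp5, Arrdc2, Plin4 and Zbtb16.

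Among genes of growth arrest and lipid storage, Cdkn1a, the cell cycle inhibitor p21, stood at 30.8, 24.2, 25.8 and 23.8 CPM on KD and 52.5, 43.1, 55.1 and 54.03 CPM on DR (−0.97 ± 0.08, adjusted p = 1.98e-05). Plin4, a lipid droplet coat protein, stood at 13.98, 17.4, 14.3 and 13.1 CPM on KD and 31.9, 27.1, 39.3 and 33.5 CPM on DR (−1.17 ± 0.10, adjusted p = 1.98e-05). Arrdc2, an arrestin-domain protein, had a log2 ratio of −1.33 ± 0.14, adjusted p = 5.57e-05. In all 3 genes every KD library was below every DR library. Zbtb16, a zinc finger transcription factor, had a log2 ratio of −1.26, Hif3a, an inhibitor of hypoxia-inducible factors, of −0.86, and Errfi1, an inhibitor of the EGF receptor, of −0.56, at adjusted p of 0.00117, 0.0012 and 0.000196. Tsc22d3, the glucocorticoid-induced leucine zipper, was called lower (−0.42 ± 0.09, adjusted p = 0.0153) although its diets overlapped, at 115, 96.3, 97.4 and 82.4 CPM on KD and 137, 110.5, 152 and 125 CPM on DR. Glul, glutamine synthetase of astrocytes, fell by 0.23 on the log2 scale (adjusted p = 0.0141). The gene that was higher was Nr3c1, which encodes the receptor itself, at 95.5, 93.03, 103 and 95.5 CPM on KD and 77.3, 79.7, 73.1 and 79.3 CPM on DR (0.32 ± 0.05, adjusted p = 0.00075), without overlap. The list gave 16 to 20 lower genes with single libraries left out and 17 to 21 under the other settings, and the values of Mt2 and Cebpd are uncertain because 73.5% of the exonic bases of Mt2 and over 10% of those of Cebpd overlap a gene on the other strand, and the library kit does not keep strand.

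Promoters of this list were searched for the core of a glucocorticoid response element (ACA and TGT with 3 bases between them, flanked beyond 1 further base by G before and C after) on both strands of the RefSeq windows that reach from 250 bases before to 50 bases after each gene's start on GRCm38.p6. It was present in 3 of the 17 called genes with a window, Sgk1, Map3k6 and Mt1, and in 0.537% of the 27025 genes with a window. The stretches with the match are printed 5′ to 3′ on the gene's strand, with the fixed letters of the palindrome in capitals, because these 3 genes carry it and moved with the list.
Sgk1 promoter, chr10:21993667-21993749, plus strand: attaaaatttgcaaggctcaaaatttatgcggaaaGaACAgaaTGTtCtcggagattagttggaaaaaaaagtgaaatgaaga
Map3k6 promoter, chr4:133240602-133240684, plus strand: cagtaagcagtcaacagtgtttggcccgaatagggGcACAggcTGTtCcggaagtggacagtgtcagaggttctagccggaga
Mt1 promoter, chr8:94178960-94179042, plus strand: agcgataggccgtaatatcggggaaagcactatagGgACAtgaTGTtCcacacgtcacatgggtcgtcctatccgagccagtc
The matches begin 188, 181 and 94 bases before the RefSeq start of Sgk1, Map3k6 and Mt1. Mt1, a metal-binding metallothionein, stood at 249, 236, 224 and 253 CPM on KD and 375, 300.4, 326 and 343 CPM on DR (−0.48 ± 0.06, adjusted p = 0.000358), with every KD library below every DR library.

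**Figure D3:**
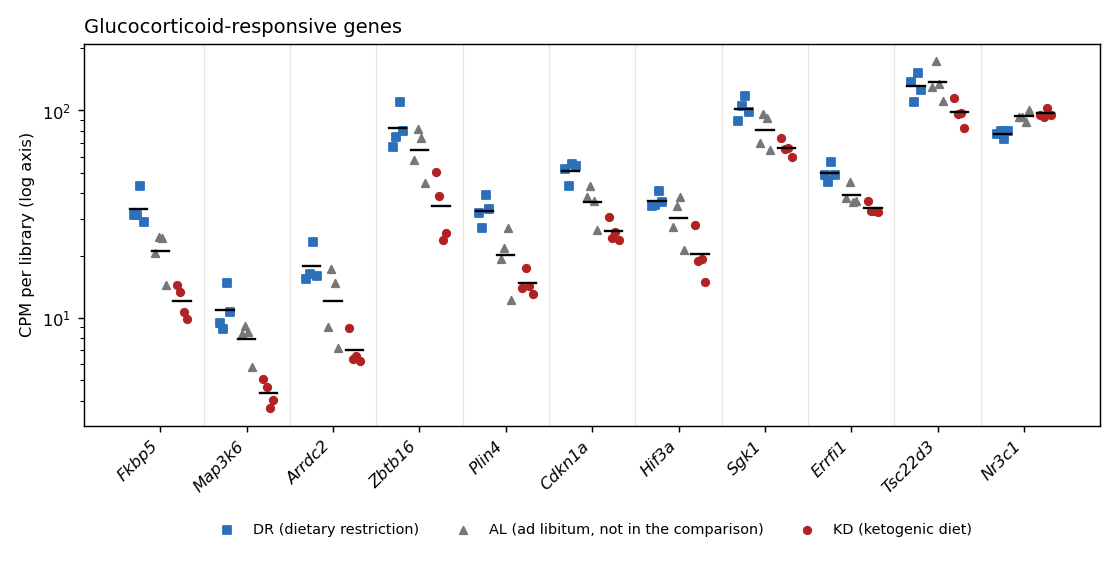
CPM (log axis) of 11 glucocorticoid-responsive genes in every library of DR (squares), AL (triangles) and KD (circles), with a black line at each mean of 4 libraries. Every KD library lies below every DR library except in Tsc22d3, where the diets overlap, and in Nr3c1, where every KD library lies above every DR library.

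Cytosolic heat shock proteins, which fold and refold proteins, were higher on KD. Of 35 tested genes 15 were called higher and 0 lower, 30 had a positive log2 ratio and the median was 0.15. Hspa8, the constitutive Hsc70, stood at 2113, 2125, 2337 and 2132 CPM on KD and 1862, 1793, 1795 and 1926 CPM on DR (0.24 ± 0.05, adjusted p = 0.00731). Hsp90aa1, an Hsp90 isoform, stood at 1247, 1173, 1344 and 1304 CPM on KD and 1009, 947, 971 and 1147 CPM on DR (0.31 ± 0.06, adjusted p = 0.00626). Neither gene's diets overlapped, and AL lay at 2452, 2300.3, 1873 and 2398 CPM for Hspa8, with AL replicate 3 within the range of DR.

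Larger folds were seen in stress-inducible members. Hsph1, an Hsp110 nucleotide exchange factor, stood at 201, 175, 225 and 202 CPM on KD and 143, 157, 126 and 158 CPM on DR (0.46 ± 0.08, adjusted p = 0.00216). Cryab, the small heat shock protein alphaB-crystallin, had a log2 ratio of 0.65 ± 0.08, adjusted p = 0.000197, and over 10% of its exonic bases overlap Hspb2. Hspa1b and Hspa1a, the inducible Hsp70 genes, had log2 ratios of 0.77 and 0.79, at adjusted p of 0.00217 and 0.00139. These 2 genes are near-identical, can share reads and are uncertain one by one. Stip1, Fkbp4, Hsp90ab1, Bag3, Chordc1 and Dnaja1, partners of Hsp70 and Hsp90 or Hsp90 itself, had log2 ratios of 0.30, 0.29, 0.32, 0.31, 0.26 and 0.26. Hsf1, the transcription factor of the heat shock response, stood at 49.6, 55.5, 52.9 and 54.3 CPM on KD and 47.5, 51.2, 48.98 and 49.2 CPM on DR and was not called (adjusted p = 0.225). Between 13 and 16 genes of the list were called higher with single libraries left out, and 11 when only genes with at most 10% exonic overlap were tested. In mitochondria, the chaperonin pair Hspd1 and Hspe1 was higher (log2 ratios 0.22 and 0.27, adjusted p = 0.00802 and 0.00424), the only called genes of 11 tested there. Hspd1 and Hspe1 lie head to head, and 4.2% and 7.6% of their exonic bases overlap.

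Chaperones of the endoplasmic reticulum (ER) were higher as well. Of 25 tested 9 were called higher and 0 lower, 21 had a positive log2 ratio and the median was 0.17. Hspa5 (ENSMUSG00000026864.13, chr2:34771970-34777547), which encodes BiP, the Hsp70 of the ER, stood at 409, 423, 444 and 363 CPM on KD and 305, 316, 285 and 315 CPM on DR, with AL at 478, 494, 365 and 454 CPM. Every KD library exceeded every DR library (0.42 ± 0.06, adjusted p = 0.000521). Pdia4, a disulfide isomerase, stood at 65.9, 63.6, 69.6 and 56.4 CPM on KD and 44.7, 50.4, 43.5 and 48.6 CPM on DR (0.45 ± 0.06, adjusted p = 0.00075). Calr, a lectin chaperone that holds calcium, stood at 386, 356, 392 and 380.3 CPM on KD and 315, 307, 292 and 321 CPM on DR (0.29 ± 0.05, adjusted p = 0.00146). The disulfide isomerases Pdia3 and Pdia6 and the Hsp110-like Hyou1 had log2 ratios of 0.33, 0.26 and 0.30. Among 24 genes of the unfolded protein response and of ER-associated degradation, Xbp1, a transcription factor of that response, and Derl3, Vldlr and Syvn1 were called higher (0.21, 0.55, 0.16 and 0.19 on the log2 scale) and 0 lower. Without KD replicate 3 the list had 0 called genes, without DR replicate 3 it had 1, and without KD replicate 1, 2 or 4 it had 2. The ER chaperones had 6 to 11 called genes with single libraries left out. KD replicate 3 was the highest of the 8 libraries for Hspa8, Hsp90aa1, Hsph1, Hspa5, Pdia4 and Calr, and without it 13 of the cytosolic and 6 of the ER chaperones were called.

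The ER stress response element, searched as CCAAT and CCACG with 9 bases between them on both strands of the same windows, was present in 5 of the 8 called ER chaperones with a window and in 7 of the 19 tested ones with a window, against 0.137% of all genes with a window. The called genes with a match were Hspa5, Hsp90b1, Calr, Pdia6 and Dnajc3, and Canx and Creld2, which were not called, had one too. Printed for 4 of the called genes, with the fixed letters in capitals (on the reverse strand in Calr), the stretches are as follows.
Hspa5 promoter, chr2:34771990-34772078, plus strand: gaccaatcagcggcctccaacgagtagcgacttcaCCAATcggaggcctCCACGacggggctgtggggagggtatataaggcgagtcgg
Calr promoter, chr8:84847040-84847128, minus strand: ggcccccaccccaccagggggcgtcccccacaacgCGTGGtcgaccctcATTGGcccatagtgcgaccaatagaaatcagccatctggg
Pdia6 promoter, chr12:17266456-17266544, plus strand: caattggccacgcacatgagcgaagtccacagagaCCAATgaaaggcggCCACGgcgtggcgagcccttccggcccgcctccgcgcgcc
Dnajc3 promoter, chr14:118937792-118937880, plus strand: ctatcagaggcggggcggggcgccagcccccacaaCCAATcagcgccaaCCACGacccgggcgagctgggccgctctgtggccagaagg
Each match lies upstream of the RefSeq start of its window, its first base at 65 bases before it in Hspa5, 162 in Calr, 98 in Pdia6 and 105 in Dnajc3. The Hspa5 stretch lies inside the interval printed above for that gene, which comes from the count table and begins earlier. Pdia6 stood at 124, 119, 126 and 110.3 CPM on KD and 95.8, 102, 96.4 and 107 CPM on DR, and Dnajc3, an inhibitor of the ER stress kinases, at 86.5, 89.5, 89.99 and 82.3 CPM on KD and 78.2, 76.1, 77.3 and 76.98 CPM on DR, without overlap in either gene. Dnajc3 was called in 3 of the 8 leave-one-out fits and Pdia6 in all 8. The heat shock element, searched as GAA, TTC and GAA in a row with 2 bases between each, was present in 2 of the 11 called cytosolic chaperones with a window, Hsph1 and Chordc1, in Dnajb6, which was not called, and in 0.662% of all genes with a window. Further elements were searched in the same way, each in the tested genes with a window of 1 other list. The mild cold response element (TCCC followed by CGCC) was present in 1 of 4 cold-inducible genes with a window, Cirbp, and in 6.19% of all genes with a window. The sterol response element (TCAC and CCAC with 1 base between them) was present in 1 of 17 cholesterol genes, Hmgcs1, and in 1.44% of all, and the cAMP response element (TGAC followed by GTCA) in 3 of 28 immediate early genes, Maff and the uncalled Dusp1 and Btg2, and in 2.03% of all. The E-box CACGTG was present in 5 of 18 clock genes, none of them called, and in 8.09% of all, and the PPAR response element (AGGTCA and AGGTCA with 1 base between them) in 0 of 34 fatty acid oxidation genes and PPAR targets and in 0.0481% of all.

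**Figure D4:**
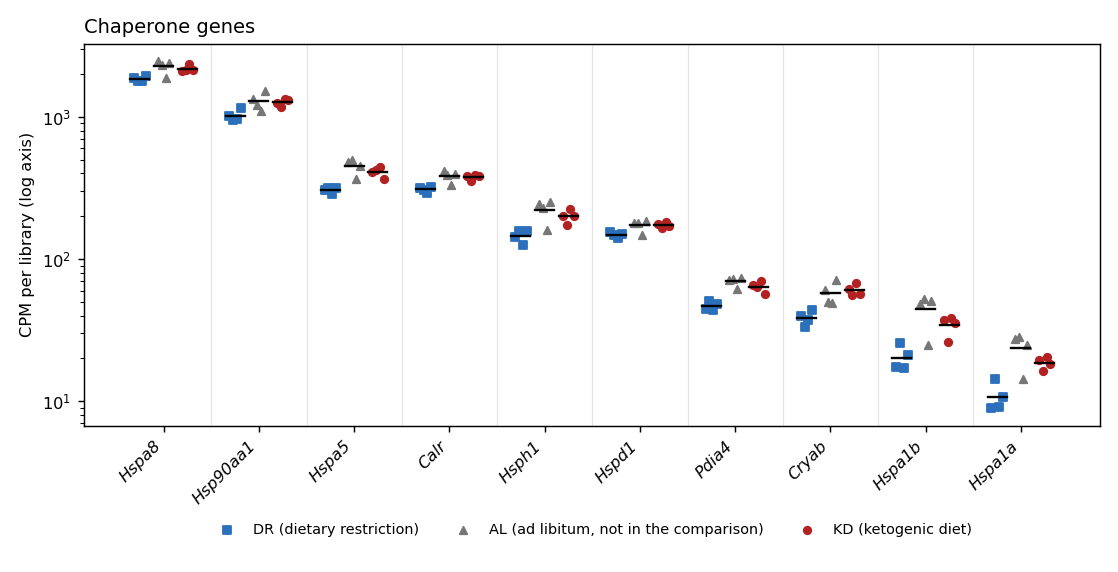
CPM (log axis) of 10 chaperone genes in every library of DR (squares), AL (triangles) and KD (circles), with a black line at each mean of 4 libraries. Every KD library lies above every DR library in all 10 genes, and AL replicate 3 is the lowest AL library in all 10.

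Of 6 cold-inducible genes 2 were lower on KD and 0 higher (33.3% lower, against 2.51% of all tested genes), with a median of −0.10. Cirbp (ENSMUSG00000045193.13, chr10:80165985-80172786), an RNA-binding protein induced by mild cold, stood at 79.3, 80.8, 65.9 and 73.8 CPM on KD and 96.1, 109.7, 107 and 97.98 CPM on DR, so that every KD library lay below every DR library (−0.45 ± 0.06, adjusted p = 0.000578). Against AL, at 61.2, 70.04, 83.05 and 61.3 CPM, its log2 ratio was 0.12 (adjusted p = 0.994) on KD and 0.57 (adjusted p = 0.00198) on DR. Clk1, a splicing kinase active at lower temperature, had a log2 ratio of −0.23 ± 0.05, adjusted p = 0.0162, and was called in 7 of the 8 leave-one-out fits. Without KD replicate 4, 1 of the 6 genes was called. Rbm3, the other well-known cold-shock RNA-binding protein, stood at 163, 161, 172 and 142 CPM on KD and 176, 191, 168 and 159 CPM on DR, overlapping, and was not called (−0.12 ± 0.06, adjusted p = 0.324). Of 10 genes of thyroid hormone action, which sets heat production, the target Hr was lower (−0.51 ± 0.06, adjusted p = 0.000237) and the carrier Ttr, described above, was called higher with overlap. Each made 10% of that list, against 2.51% lower and 2.43% higher of all tested genes. Ttr was called in 1 of the 8 leave-one-out fits and not by DESeq2.

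Genes of insulin signaling and its FoxO effectors were called lower on KD or not at all. Of 32 tested, 6 were lower (18.75%, against 2.51% of all tested genes) and 0 higher, with a median of −0.01. Foxo1, a transcription factor that insulin keeps out of the nucleus, stood at 20.8, 16.3, 16.3 and 20.6 CPM on KD and 28.5, 26.3, 31.95 and 27.9 CPM on DR (−0.63 ± 0.09, adjusted p = 0.000611). Ddit4, an inhibitor of mTORC1 that is also on the glucocorticoid list, stood at 61.6, 63.8, 57.3 and 59.1 CPM on KD and 68.1, 84.7, 86.7 and 84.8 CPM on DR (−0.42 ± 0.07, adjusted p = 0.0016). Irs2, an insulin receptor substrate, and Foxo3 had log2 ratios of −0.28 and −0.19 (adjusted p = 0.00445 and 0.0198). In these 4 genes every KD library lay below every DR library. Without KD replicate 3 or without DR replicate 3 the list had 3 called genes.

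Of 12 tested ketone body genes, 1 was lower and 1 higher on KD (8.33% each way, against 2.51% and 2.43% of all tested genes). Without KD replicate 1, KD replicate 3 or DR replicate 4 the list had 0 called genes. Without DR replicate 1 it had 1 higher and 0 lower. Oxct1, which activates ketone bodies for use, was higher on KD by a small margin (0.15 ± 0.04, adjusted p = 0.048) and was called in 1 of the 8 leave-one-out fits, with 12.6% of its exonic bases shared with another gene. Bdh1, which interconverts the ketone bodies, and Slc16a1, their transporter, were not called, with log2 ratios of 0.08 and 0.19 (adjusted p = 0.518 and 0.197).

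Among 40 tested genes of fatty acid oxidation and PPAR targets, 6 were lower (15%) and 1 higher (2.5%) on KD. Of all tested genes 2.51% were lower and 2.43% higher, so the share called higher was near that of all genes. Angptl4, a secreted inhibitor of lipoprotein lipase, stood at 2.23, 2.88, 3.20 and 2.29 CPM on KD and 5.64, 5.52, 6.50 and 6.13 CPM on DR (−1.17 ± 0.13, adjusted p = 0.000135), without overlap. Pdk4, which shuts glucose carbon out of the citric acid cycle, had a log2 ratio of −0.57 ± 0.11, adjusted p = 0.00802. Both are on the glucocorticoid list too. Cyp4f15, a fatty acid hydroxylase, and Ucp3, a mitochondrial carrier, had log2 ratios of −1.14 and −0.89 (adjusted p = 0.00123 and 0.0168). Txnip, a glucose-responsive arrestin, had one of −1.16, and 19.4% of its exonic bases overlap another gene. The gene called higher was the coactivator Ppargc1b (0.43 ± 0.09, adjusted p = 0.00992). Cpt1a, the gate of mitochondrial fatty acid import, stood at 30.6, 30.8, 31.2 and 28.99 CPM on KD and 27.99, 30.2, 29.1 and 33.1 CPM on DR and was not called (adjusted p = 0.936).

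Sterol synthesis genes that were called were higher on KD. Of 25 genes of cholesterol biosynthesis and uptake, 6 were higher on KD (24%, against 2.43% of all tested genes) and 0 lower. A positive log2 ratio was seen in 21, and the median was 0.16. Cyp51 and Sqle, enzymes after squalene formation, had log2 ratios of 0.37 and 0.36 (adjusted p = 0.00588 and 0.00797). Srebf2, the transcription factor of sterol synthesis, and Sc5d were each called in 1 of the 8 leave-one-out fits, and the list had 2 called genes without KD replicate 1, KD replicate 3 or DR replicate 3 and 3 without KD replicate 2, KD replicate 4 or DR replicate 2. Hmgcs1 was higher by 0.21 on the log2 scale, with 12.1% of its exonic bases shared. On the export side, Abca1, a cholesterol exporter, and Nr1h3, the sterol sensor LXR alpha, were lower (−0.37 and −0.27, adjusted p = 0.00855 and 0.0277), and Lcat, which esterifies exported cholesterol, was higher (0.40, adjusted p = 0.00123), out of 13 tested. Nr1h3 was called in 3 of the 8 leave-one-out fits, and 1 of the 13 was lower without KD replicate 1, 3 or 4 or DR replicate 1 or 2.

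In fatty acid synthesis, 4 of 20 tested genes were higher (20%) and 1 was lower (5%) on KD, against 2.43% and 2.51% of all tested genes. Of these, Scd2 was called in 0 of the 8 leave-one-out fits and the lower gene, Acacb, in 1. The desaturase gene Fads1 stood at 128, 124, 129 and 120.2 CPM on KD and 94.6, 102, 106 and 107 CPM on DR. Fads2, another desaturase gene, stood at 57.4, 61.03, 52.8 and 54.2 CPM on KD and 40.4, 47.6, 43.3 and 45.8 CPM on DR. Neither overlapped between diets (log2 ratios 0.29 and 0.35, adjusted p = 0.0019 and 0.00256). Me1, the malic enzyme that supplies NADPH, was higher by 0.28 on the log2 scale (adjusted p = 0.00525).

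Of 36 glucose genes 2 were higher and 2 lower (5.56% each way, against 2.43% and 2.51% of all tested genes), and the median log2 ratio was 0.01. Hk2, an inducible hexokinase, stood at 19.7, 21.2, 20.5 and 23.8 CPM on KD and 15.8, 16.7, 12.9 and 15.4 CPM on DR (0.49 ± 0.08, adjusted p = 0.00264), and Ldha, lactate dehydrogenase A, was higher by 0.25 on the log2 scale (adjusted p = 0.00386). Pck2, mitochondrial PEP carboxykinase, and Pdk2 were lower (−0.39 and −0.21, adjusted p = 0.000963 and 0.0112). Slc2a1, the glucose transporter of the blood-brain barrier, stood at 146, 133, 120.0 and 116 CPM on KD and 137, 149.9, 185 and 159 CPM on DR, overlapping and not called (adjusted p = 0.0531). Amino acid catabolism had 5 lower and 0 higher genes of 32, among them Prodh, proline dehydrogenase, at 41.05, 42.4, 36.8 and 42.97 CPM on KD and 57.9, 54.3, 53.2 and 62.6 CPM on DR (−0.48 ± 0.06, adjusted p = 0.000351). Ivd of leucine breakdown fell by 0.20 on the log2 scale (adjusted p = 0.0106). Without KD replicate 1, 3 or 4 or without DR replicate 3 the amino acid list had 2 called genes, and without DR replicate 1 or 4 it had 3.

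Among defence and repair genes the called ones were mostly lower on KD, with 3 lower (20%) and 1 higher of 15 metallothionein and iron genes, 2 lower (6.25%) of 32 antioxidant genes and 3 lower (5.66%) of 53 DNA repair genes, against 2.51% of all tested genes. Of the first list, Mt1 and Mt2 are on the glucocorticoid list too. Gpx3, a secreted glutathione peroxidase, stood at 2.42, 2.80, 1.64 and 2.50 CPM on KD and 6.33, 5.27, 5.32 and 3.99 CPM on DR (−1.16 ± 0.17, adjusted p = 0.00075) and did not overlap between diets. Heph, a copper enzyme of iron export, was lower (−0.86 on the log2 scale, adjusted p = 0.00191) and the iron exporter Slc40a1 higher (0.51, adjusted p = 0.0217), but not without KD replicate 1, KD replicate 4, DR replicate 2 or DR replicate 3. The DNA repair genes that were lower were Mlh3 of mismatch repair (−0.23 on the log2 scale, adjusted p = 0.0167) and, with 35.7% and 23.8% of their exonic bases shared with other genes, the glycosylase gene Mpg and Ddb2, and 1 was called without KD replicate 1 and 1 among genes with at most 10% exonic overlap. The antioxidant list had 1 called gene without any 1 of KD replicates 1 to 3 or DR replicates 1, 3 and 4. Of 31 autophagy and lysosome genes, Map1lc3b was called lower (3.23% of the list, log2 ratio −0.20, adjusted p = 0.038), in 2 of the 8 leave-one-out fits. That list had 0 called genes without KD replicate 1, 3 or 4 or DR replicate 1 or 3.

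The circadian clock showed 0 called genes of 21 in edgeR's test, with 4 at an unadjusted p under 0.05. Clock genes turn over with the time of day, and Per2, a repressor of the clock, stood at 138, 154, 161 and 123 CPM on KD and 95.9, 133, 126 and 110.3 CPM on DR, overlapping (log2 ratio 0.31, adjusted p = 0.0584). Per1 and Nr1d1 also overlapped (adjusted p = 0.639 and 0.73). DESeq2 called 0 of the 21 as well. Without DR replicate 2, and also without a filter on low counts, edgeR called 3 higher and 1 lower. Without KD replicate 4 it called 1 higher. Immediate early genes, induced by neuronal activity, had 6 genes higher (17.1%) and 1 lower (2.86%) on KD of 35 tested. Of all tested genes 2.43% were higher and 2.51% lower, so the share called lower was near that of all genes. Egr4 stood at 2.44, 2.37, 3.20 and 2.52 CPM on KD and 1.20, 1.37, 0.978 and 1.35 CPM on DR (1.10 ± 0.17, adjusted p = 0.00139) and did not overlap. Arc, a regulator of synaptic receptors, and Egr1 were higher by 0.38 and 0.35 on the log2 scale (adjusted p = 0.0139 and 0.0161), Nr4a1 and Nr4a2 by 0.56 and 0.48, with KD replicate 3 the highest library for both. Maff was lower (−0.94 ± 0.20, adjusted p = 0.0126). Fos stood at 26.2, 22.5, 50.8 and 17.2 CPM on KD and 24.1, 15.8, 19.4 and 21.5 CPM on DR and was not called (adjusted p = 0.233). The list was sensitive to the fit, with 3 higher and 2 lower genes by DESeq2, with all 12 libraries in the fit and without KD replicate 3, and 11 higher and 2 lower without a filter on low counts.

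In 4 lists of neuronal receptors and channels, 0 genes were called lower on KD. Called higher were 13.6% of the calcium channels and, with 1 gene, 8.33% of the GABA-A receptor subunits. The shares were 13.3% for potassium and HCN channels and 20% for glutamate receptor genes. Of all tested genes 2.43% were higher and 2.51% lower. Among voltage-gated calcium channels 3 of 22 were called, the same number under every setting. Cacna1e, the pore of the R-type channel, stood at 329, 276, 324 and 279 CPM on KD and 224, 211, 219 and 227 CPM on DR (0.45 ± 0.06, adjusted p = 0.000391), with every KD library above every DR library. Cacng5 and the T-type pore Cacna1i had log2 ratios of 0.34 and 0.24 (adjusted p = 0.00201 and 0.00721). Gabra2, 1 called of 12 GABA-A receptor subunits, stood at 92.5, 81.1, 92.8 and 88.1 CPM on KD and 65.8, 63.1, 69.9 and 72.3 CPM on DR (0.39 ± 0.05, adjusted p = 0.000693), without overlap. Gabra6, the subunit of granule cells, lay at 891 ± 37.4 CPM on KD and 896 ± 26.7 CPM on DR (SD, n = 4 each).

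Of 30 potassium and HCN channels 4 were called, among them Kcnb2, Hcn2 and, with 39.6% of its exonic bases shared, Kcna6, at log2 ratios of 0.43, 0.22 and 0.29. Of 25 glutamate receptor genes 5 were called, among them Gria1, Gria4, Grin2a and Grin2b, with log2 ratios from 0.17 to 0.24. Scaled by library size alone, 2 of the 25 were called. The AMPA receptor subunit Gria1 stood at 605, 574, 583 and 601 CPM on KD and 483, 504, 536 and 553 CPM on DR (0.19 ± 0.05, adjusted p = 0.0318). Its diets did not overlap, yet 0 of the 25 were called without KD replicate 1 or without KD replicate 3, 1 without DR replicate 3, 2 without KD replicate 2, KD replicate 4 or DR replicate 1, and 3 without DR replicate 2. Shisa9, an auxiliary protein of AMPA receptors outside these lists, stood at 29.8, 28.3, 32.3 and 29.2 CPM on KD and 19.5, 18.9, 20.7 and 20.3 CPM on DR (0.59 ± 0.06, adjusted p = 5.30e-05), without overlap.

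Purkinje cell markers were called higher on KD in 4 of 12 cases and lower in 0, and all 12 had a positive log2 ratio, with a median of 0.12. Whether such a difference reflects fewer cells or less RNA per cell cannot be told apart in bulk tissue. Their summed level was 9054, 9163, 8906 and 9089 CPM on KD and 7787, 7589, 8118 and 8745 CPM on DR, without overlap, and 9630.2, 9171, 9051 and 9138 CPM on AL. Itpr1 was the most abundant marker, and none of the 12 was at 0. Ryr1, an intracellular calcium channel, stood at 126, 138, 128 and 125 CPM on KD and 98.4, 90.5, 105 and 119.8 CPM on DR (0.32 ± 0.07, adjusted p = 0.0108). Car8, a modulator of the IP3 receptor, had a log2 ratio of 0.24 ± 0.05, adjusted p = 0.0164. Calb1, the calcium buffer calbindin, stood at 506, 505, 517 and 502 CPM on KD and 503, 468, 474 and 469 CPM on DR and was not called (adjusted p = 0.284). Without KD replicate 3 the list had 1 called gene, and without KD replicate 1, KD replicate 2 or DR replicate 3 it had 2. Of the 401 genes tested of a longer Purkinje cell list from a published single-cell atlas, 34 were higher (8.48%) and 9 lower (2.24%), against 2.43% and 2.51% of all tested genes, and their median was 0.07. This atlas list had 17 higher and 3 lower genes without KD replicate 3 or DR replicate 3, 19 higher without KD replicate 1 or KD replicate 4, and 5 lower without KD replicate 4. Granule cells, the most numerous neurons, had 1 higher and 1 lower marker of 12 (0 and 0 without KD replicate 3 or DR replicate 3) and a summed level of 7872, 8210.4, 8259.5 and 8042 CPM on KD and 7812, 8204, 8202 and 8119 CPM on DR, overlapping. Of 41 genes of the atlas granule cell list 4 were higher (9.76%) and 3 lower (7.32%), and with single libraries left out 0 to 4 were higher and 1 to 5 lower, with the fewest (0 and 1) without KD replicate 3. Of the interneuron markers, Lgi2 was lower (−0.28 ± 0.05, adjusted p = 0.00244), 1 of 12.

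Matrix proteins moved in both directions, with 4 of 25 tenascins, net proteins and fibulins higher (16%) and 2 lower (8%) on KD. Of all tested genes 2.43% were higher and 2.51% lower. Tnc (ENSMUSG00000028364.15, chr4:63959785-64047015), the glial matrix glycoprotein tenascin-C, stood at 30.2, 27.6, 32.5 and 26.1 CPM on KD, 11.1, 16.4, 13.2 and 13.7 CPM on DR and 27.5, 29.8, 36.3 and 31.4 CPM on AL. Every KD library exceeded every DR library, and KD and AL overlapped. Its log2 ratio was 1.10 ± 0.10, adjusted p = 1.98e-05. Fbln5 (ENSMUSG00000021186.9, chr12:101746565-101819055), an elastic fibre protein, went the opposite way, at 5.77, 6.94, 5.72 and 8.65 CPM on KD, 15.6, 14.9, 19.01 and 14.3 CPM on DR and 7.54, 6.43, 5.08 and 6.56 CPM on AL (−1.24 ± 0.12, adjusted p = 5.10e-05). Sparc, a matricellular protein of astrocytes, was lower with no overlap (−0.33 ± 0.05, adjusted p = 0.00172), while Tnr of perineuronal nets and Cspg5 were higher (0.32 and 0.22, adjusted p = 0.00272 and 0.00911). Among 46 collagens, laminins and integrins 5 were higher (10.9%) and 0 lower. Col9a2 led them at 20.5, 19.1, 19.2 and 19.7 CPM on KD and 14.4, 12.4, 14.6 and 15.1 CPM on DR (0.47 ± 0.07, adjusted p = 0.001). The other 4 of these 5 were called in 1 or 2 of the 8 leave-one-out fits. Of 16 genes of the Sonic hedgehog pathway 3 were higher (18.8%) and 0 lower. Among them were the target Hhip by 0.63 on the log2 scale (adjusted p = 0.00371) and the receptor Ptch1, with overlap, by 0.22 (adjusted p = 0.031).

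Glia differed between the diets gene by gene. Among 14 Bergmann glia and astrocyte markers 3 were higher (21.4%) and 1 lower (7.14%) on KD, against 2.43% and 2.51% of all tested genes. Aqp4, the water channel of astrocyte endfeet, stood at 205, 177, 197 and 165 CPM on KD and 131, 154, 130.4 and 131 CPM on DR (0.45 ± 0.07, adjusted p = 0.00131), while Etnppl, an astrocyte lipid enzyme, stood at 41.9, 42.5, 35.95 and 41.1 CPM on KD and 78.3, 54.8, 71.8 and 62.9 CPM on DR (−0.73 ± 0.09, adjusted p = 0.000225). Both were free of overlap, in opposite directions. Fabp7, a fatty acid carrier of radial and Bergmann glia, was higher (0.82 ± 0.13, adjusted p = 0.00217), and Hopx had a log2 ratio of 0.30, with 27.2% of its exonic bases shared.

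Of 15 mature oligodendrocyte markers 3 were higher and 0 lower, and of 12 precursor markers 3 were higher and 0 lower. Ugt8a, which makes myelin galactolipids, stood at 26.4, 23.3, 27.7 and 26.3 CPM on KD and 16.04, 15.5, 17.1 and 20.5 CPM on DR (0.59 ± 0.08, adjusted p = 0.00075), without overlap. Mbp, a myelin protein, stood at 1234, 1147, 1249 and 1206 CPM on KD and 1010.0, 1004, 1289 and 1189 CPM on DR and was not called (adjusted p = 0.438). The summed level of the mature markers was 2851, 2678, 2902 and 2856 CPM on KD and 2353, 2281, 2819 and 2683 CPM on DR, overlapping. Sox10, the transcription factor of the lineage, stood at 15.8, 20.01, 18.99 and 17.1 CPM on KD and 11.98, 11.2, 11.2 and 13.00 CPM on DR (0.60 ± 0.08, adjusted p = 0.000592), and Gpr17 and Enpp6 of differentiating cells were higher by 0.48 and 0.67 on the log2 scale (adjusted p = 0.00217 and 0.0191). As with the Purkinje cell markers, the summed level was higher on KD without overlap in 4 other short marker lists. For Bergmann glia and astrocyte markers it was 3356, 3168, 3297 and 3329.8 CPM on KD and 3158, 2990.2, 3026 and 3136 CPM on DR, and for oligodendrocyte precursor markers, of which 10 of 12 had a positive log2 ratio (median 0.22), 163, 148, 161 and 162 CPM on KD and 129, 127, 145 and 146 CPM on DR. For microglia markers, of which 12 of 14 had a positive log2 ratio (median 0.19), it was 100.3, 87.3, 91.8 and 97.7 CPM on KD and 86.1, 86.9, 86.2 and 82.9 CPM on DR, and for endothelial and mural markers 363, 367, 369.9 and 372 CPM on KD and 341, 342, 347 and 339 CPM on DR. Of longer atlas lists, the oligodendrocyte list had 16 higher (9.64%) and 10 lower (6.02%) genes of 166, the astrocyte list 17 higher (4.80%) and 28 lower (7.91%) of 354 and the Bergmann glia list 11 higher (7.19%) and 8 lower (5.23%) of 153, against 2.43% and 2.51% of all tested genes. The oligodendrocyte list had 9 higher genes without KD replicate 1 or KD replicate 3 and 10 without KD replicate 4. The astrocyte list had 10 higher and 17 lower without KD replicate 3, 9 higher without DR replicate 3 and 11 higher without KD replicate 1 or KD replicate 4. The Bergmann glia list had 5 lower without KD replicate 1 or KD replicate 3. Summed over the longer atlas lists, the level overlapped between diets for Bergmann glia, astrocytes, microglia, oligodendrocytes and granule cells. The means were 9529, 22782, 6566, 14343 and 10976 CPM on KD and 9611, 22803, 6508, 14148 and 11064 CPM on DR. For the atlas Purkinje cell list the sums did not overlap, with means of 28832 CPM on KD and 27150 CPM on DR. The part of these marker levels in the other results was not tested.

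**Figure D5:**
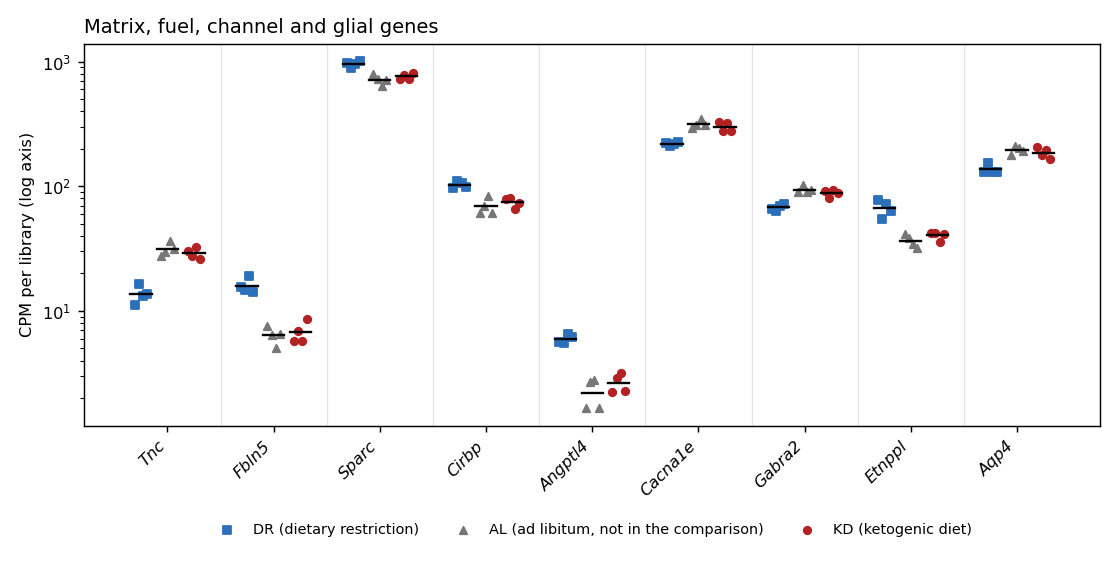
CPM (log axis) of 9 matrix, cold-inducible, fuel, channel and glial genes in every library of DR (squares), AL (triangles) and KD (circles), with a black line at each mean of 4 libraries. KD and DR overlap in none of the 9 genes, and KD lies above DR in Tnc (26.1 to 32.5 CPM on KD) and below it in Fbln5 (14.3 to 19.0 CPM on DR).

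Of 14 microglia markers Fcrls was higher (7.14% of the list, against 2.43% of all tested genes, 0.84 ± 0.20, adjusted p = 0.0244), at or below 1.65 CPM in every library, and it was called in 4 of the 8 leave-one-out fits. Of 341 genes of the atlas microglia list 6 were higher and 6 lower (1.76% each), and with single libraries left out 0 (without KD replicate 1) to 8 were higher and 3 to 6 lower. Of 17 endothelial and mural markers, Itm2a was higher without overlap (0.63 ± 0.07, adjusted p = 0.000196) and the VEGF receptor Kdr with overlap (0.46 ± 0.10, adjusted p = 0.0168), and the most abundant, Flt1, was not among the called genes. Without KD replicate 3, without KD replicate 4 and with all 12 libraries in the fit 1 of the 17 was called. Of 7 tested choroid plexus markers Ttr was called (2.16 ± 0.56, adjusted p = 0.0332), in 1 of the 8 leave-one-out fits, with its highest value in KD replicate 1. Of 14 meningeal, 6 erythroid and 2 brainstem markers edgeR called 0, with 3, 0 and 0 at an unadjusted p under 0.05, and DESeq2 called 0, 0 and 0. Without DR replicate 2, edgeR called 2 erythroid markers higher. It called 2 meningeal markers lower without DR replicate 1 and 1 higher with all 12 libraries in the fit. Without a filter on low counts, 1 meningeal and 1 erythroid marker were called lower.

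Protein synthesis and respiration showed almost no call. Of 77 cytosolic ribosomal protein genes 0 were called in edgeR's test and 1 by DESeq2, with 12 at an unadjusted p under 0.05, and 62 had a negative log2 ratio, with a median of −0.05. Scaled by library size alone their median was −0.07. Without KD replicate 4 edgeR called 1 of them lower, and without a filter on low counts it called 2 lower. Rpl3 stood at 212, 207, 190.3 and 201 CPM on KD and 245, 217, 219.7 and 222 CPM on DR, without overlap, and did not pass (adjusted p = 0.0822). Of 79 nuclear subunits of oxidative phosphorylation Cox6b2 and Cox6c were higher (0.42 and 0.15, adjusted p = 0.0316 and 0.0411), each in 1 of the 8 leave-one-out fits, which is 2.53% of the list against 2.43% of all tested genes. Of 13 mitochondrially encoded mRNAs edgeR called 0, with 3 at an unadjusted p under 0.05, and DESeq2 called 1. Without DR replicate 1 edgeR called 1 higher, and without a filter on low counts 2.

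Where the mean reached 1 CPM and KD and DR were apart, the largest increases on KD were in genes of low level. Sost, a secreted Wnt inhibitor, stood at 1.71, 1.57, 2.11 and 2.03 CPM on KD and 0.460, 0.562, 0.230 and 0.687 CPM on DR (1.93 ± 0.25, adjusted p = 0.000441). Tnfsf10, the death ligand TRAIL, stood at 1.61, 1.63, 2.02 and 1.93 CPM on KD, 0.715, 0.842, 0.719 and 0.825 CPM on DR and 1.08, 0.748, 0.775 and 1.49 CPM on AL (1.21 ± 0.18, adjusted p = 0.0012), so that every KD library exceeded every AL library too; KD against AL was 0.82 (adjusted p = 0.872). The interferon-inducible GTPase genes Gbp4, Gvin1 and Gm4070 had log2 ratios of 1.29, 1.20 and 1.18, and Gvin1 and Gm4070 are similar genes that may share reads. Adamtsl2, Bfsp2 and Fbxw23 completed the 8, at 1.35, 1.27 and 1.602, of which Fbxw23 was called in 4 of the 8 leave-one-out fits and 11.8% of the exonic bases of Bfsp2 are shared.

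The largest decreases on KD were those of Gm12840, Loxhd1, Gdnf, Fkbp5, Gm27252, Tssk5, Ighm and Arrdc2, with log2 ratios from −2.27 to −1.33. Gdnf, a neurotrophic factor, stood at 1.48, 0.571, 0.903 and 0.489 CPM on KD and 1.94, 2.65, 3.25 and 2.09 CPM on DR (−1.52 ± 0.28, adjusted p = 0.00505). Ighm, the heavy chain of IgM, stood at 0.961, 1.26, 1.45 and 1.24 CPM on KD and 3.14, 2.96, 4.31 and 2.67 CPM on DR (−1.42 ± 0.18, adjusted p = 0.000407). Where the mean reached 10 CPM, the 4 lowest p-values among the higher genes were those of Tnc, Car2, Cxcl12 and Shisa9, and among the lower genes those of Fkbp5, Cdkn1a, Plin4 and Neat1. Car2, carbonic anhydrase of oligodendrocytes, stood at 112, 106, 112 and 103 CPM on KD and 75.96, 80.8, 71.6 and 79.98 CPM on DR (0.49 ± 0.05, adjusted p = 5.00e-05). Cxcl12, a chemokine, was higher by 0.78 on the log2 scale (adjusted p = 5.00e-05). Neat1, a nuclear long noncoding RNA, stood at 122, 131, 109 and 118 CPM on KD, 207, 206, 217 and 171 CPM on DR and 105, 102, 115 and 87.5 CPM on AL (−0.74 ± 0.07, adjusted p = 3.04e-05), with the DR libraries above all others.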

How the data were processed

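RNA of 12 cerebellar cortex samples was sequenced after poly(A) selection with a kit that does not keep strand. The authors deposited 1 table of raw counts per gene. The submitters' processing notes name Trimmomatic 0.39, STAR 2.7.0f, Subread 1.6.4, edgeR 3.32.1 and GRCm38.p6, and whether counting used strand is not stated. Gene IDs and coordinates were those of the table. Symbols and gene types came from GENCODE vM21, joined by gene ID without version, and promoters came from RefSeq on GRCm38.p6.

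Counts of the 8 KD and DR libraries were filtered with filterByExpr (minimum count 10), scaled with TMM and tested with edgeR 4.0.16 (R 4.3.3) by the quasi-likelihood test. P-values of 19087 genes were adjusted after Benjamini and Hochberg, with a threshold of 0.05. KD against AL and DR against AL were fitted likewise on their own 8 libraries. CPM values were scaled over all 12 libraries, and principal components used log2 CPM with a prior count of 2. DESeq2 1.42.0, library-size scaling, other filters, all 12 libraries in the fit, genes with at most 10% exonic overlap and each library left out were the alternatives. The fit was tested on simulated data for KD against DR with 19087 genes. It recovered 81 of 100 changes of 0.5 and 100 of 100 of 1 on the log2 scale, with 14 false calls. No other size of change was simulated, and recovery was not split by count level. The called genes had a median absolute log2 ratio of 0.32, so these rates do not give the recovery of changes of that size. Depth was 31749160 to 38961800 counts per library, which bounds counting error only.

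The gene lists and the comparison were chosen with earlier results of these data known, and the atlas lists were added after values of the other lists were seen. Named genes were the 8 largest changes per direction (called, mean from 1 CPM upward, KD and DR apart), the 4 lowest p-values per direction (mean from 10 CPM upward), up to 4 called genes of lowest p per list (the most abundant gene where none was called) and a few genes fixed by name. Map3k6, Zbtb16, Hif3a, Errfi1, Tsc22d3, Hsp90aa1, Hsp90ab1, Pdia6, Dnajc3, Hyou1, Nr4a1, Nr4a2, Ppargc1b, Ucp3, Grin2b, Srebf2, Mbp and other list members outside this rule were named after their values were seen. Some genes of these lists are not reported here.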

Additional observations from a re-analysis of the deposited data

Results flagged for a closer look

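Of 298 groups of 4 libraries examined, 15 held a library far from its 3 fellows by Dixon's test, about the 1 in 20 that chance gives. KD replicate 3 and DR replicate 1 accounted for 5 of them each. The score of KD replicate 3 on the first principal component was 25.01, against 12.0 to 13.4 in the other KD libraries. It was high for the chaperones Hspa8 (2337 CPM against 2113 to 2132) and Pdia3 (177.9 CPM against 149.6 to 152.4) and the calcium channel gene Cacna1i (157 CPM against 145 to 146), and low for Foxo3 (225.7 CPM against 245.9 to 247.6). DR replicate 1 was high for mt-Co1 (11327 CPM against 9663 to 9945) and Calb1 (503 CPM against 468 to 474) and low for Ddit4 (68.1 CPM against 84.7 to 86.7), Foxo3 (261 CPM against 280.1 to 282) and the desaturase gene Scd2 (1121 CPM against 1231 to 1236). Arrdc2 was high in KD replicate 1 (8.94 CPM against 6.23 to 6.59) and in DR replicate 3 (23.2 CPM against 15.4 to 16.3). DR replicate 2 was low for the AMPA receptor subunit gene Gria4 (449.99 CPM against 494 to 500.2) and high for Aqp4 (154 CPM against 130.4 to 131). KD replicate 1 was low for Kdr (9.95 CPM against 13.4 to 13.9).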

How the results depend on the processing

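The 942 calls became 1503 with no filter on low counts, 1275 with DESeq2, 993 by library size alone, 949 with all 12 libraries, 855 with genes of at most 10% exonic overlap and 779 with a CPM filter of 10, and 467 to 946 with single libraries left out. The share of called genes higher on KD, 49.2% with TMM, was 37.9% by library size alone, which moved the median of all genes by −0.02. The difference of the diets on the first principal component, 32.0, was 632.51 on CPM without log and no longer passed (exact permutation test, p = 0.4), while the second component there passed (p = 0.0286, exact permutation test). On the first component it was 13.4 with a CPM filter of 10 and 124 with genes scaled to unit variance, with p = 0.0286 by exact permutation test in both. Of the 147 named genes tested 130 were called, and 0 of these reversed under any alternative that tested them. All 130 were tested in every leave-one-out fit and 83 were called in all 8, and 89 were tested under every alternative, of which 56 were called in all. Calls were lost most often without KD replicate 3 (40), KD replicate 1 (36) and DR replicate 3 (33).

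Genes that were not called and lay near 0 changed sign. Col1a2 moved from −0.00 to 0.0012 with DESeq2 and ran from −0.090 to 0.060 with single libraries left out, and Cpt1a became −0.0055 by library size alone and ran from −0.020 to 0.063. Gabra6 ran from −0.037 to 0.0092 and Hba-a1 from −0.35 to 0.28, its highest value being that without DR replicate 2. No paired analysis was possible because the labels number each library once and give no number that the diets share.

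With 4 libraries per diet the exact permutation test cannot go below 0.0286, and genes of low counts were tested with less precision. The diet and the hour and feeding state at dissection cannot be told apart.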
